A study of Mus musculus with 13 samples.

Results

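The genes of 10 liver-made plasma proteins (Alb, Afp, Afm, Gc, Ttr, Trf, Fga, Fgb, Fgg and Ambp) were examined in ChIP-seq region lists from the mouse hepatoma line Hepa 1-6. They were taken by symbol from the mm9 annotation (NCBIM37, GENCODE M1), and all 10 were found among its 22367 protein-coding genes on nuclear chromosomes. For each gene, regions were counted at the promoter (up to 250 bp from the annotated 5′ end on either side), over the gene body (the whole gene, from its 5′ to its 3′ end) and within 20 kb of the gene.

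The study asked where the corepressor KAP1 sits in these cells and how RNA polymerase II (PolII) is distributed when KAP1 is depleted. Cells of the line (Hepa 1.6 in the labels) under standard culture gave the KAP1, H3K27ac, H3K4me1 and H3K9me3 lists. The lists for PolII and for RNA polymerase III (PolIII) come from cells fixed 5 days after they were transduced with a control hairpin vector (control), described as an empty vector in the methods, or with a hairpin against KAP1 (Kap1 KD). Of 13 samples, 8 have a region list and 5 are sequenced inputs, which were not analysed here. Each list comes from 1 library, so no value has a replicate error and no difference between conditions could be tested. The depth of the libraries is unknown, and the lists hold no transcript levels.

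Albumin is the main carrier protein of plasma. Its gene lies in a row with those of alpha-fetoprotein (Afp), the fetal counterpart, and afamin (Afm), a vitamin E carrier, while the more distant Gc encodes the vitamin D binding protein of the same family. Afp is silenced in the liver after birth and is often active again in hepatoma. The 3 fibrinogen chains are encoded by Fga, Fgb and Fgg in a second cluster, Ttr and Trf encode the carriers of thyroid hormone and iron, and Ambp encodes the precursor of alpha-1-microglobulin and bikunin. Promoters of this class are known targets of the liver transcription factors HNF4, FOXA and C/EBP. H3K27ac marks active promoters and enhancers, H3K4me1 is typical of enhancers, and H3K9me3 marks silenced chromatin to which KAP1 is often recruited.

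The promoters of Alb, Afp, Fgb and Ambp are shown first because these were the members with an H3K27ac region there. Each line holds the 250 bases upstream of the annotated 5′ end in NCBIM37, read 5′ to 3′ in the direction of the gene. Capitals mark matches on either strand to short cores of liver factor sites and of the TATA box.
Alb promoter (chr5:90889665-90889914, plus strand): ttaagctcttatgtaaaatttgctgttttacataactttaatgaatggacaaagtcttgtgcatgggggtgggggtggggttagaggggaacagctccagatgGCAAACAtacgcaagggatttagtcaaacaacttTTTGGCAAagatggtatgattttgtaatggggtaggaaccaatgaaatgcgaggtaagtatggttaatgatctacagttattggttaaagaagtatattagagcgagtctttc
Afp promoter (chr5:90919490-90919739, plus strand): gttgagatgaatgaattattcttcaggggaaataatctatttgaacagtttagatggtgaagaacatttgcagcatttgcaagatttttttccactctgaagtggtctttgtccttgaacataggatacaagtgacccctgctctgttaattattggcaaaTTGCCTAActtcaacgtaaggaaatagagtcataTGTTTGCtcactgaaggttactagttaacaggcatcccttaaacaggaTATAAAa
Fgb promoter (chr3:82853726-82853975, minus strand): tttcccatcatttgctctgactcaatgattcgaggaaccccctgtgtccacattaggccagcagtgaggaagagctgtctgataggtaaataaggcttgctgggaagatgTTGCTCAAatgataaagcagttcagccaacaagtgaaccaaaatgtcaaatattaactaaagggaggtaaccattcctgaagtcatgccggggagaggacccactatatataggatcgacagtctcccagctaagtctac
Ambp promoter (chr4:62815834-62816083, minus strand): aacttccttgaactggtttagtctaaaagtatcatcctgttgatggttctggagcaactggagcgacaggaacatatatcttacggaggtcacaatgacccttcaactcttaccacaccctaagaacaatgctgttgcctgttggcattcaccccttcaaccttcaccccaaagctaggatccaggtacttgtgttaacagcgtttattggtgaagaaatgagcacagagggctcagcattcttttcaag

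The letters searched were TGTTTNC for FOXA, TTGCNNAA for C/EBP, CAAAGTCCA for HNF4 and TATAAA for the TATA box. Both strands were read from 250 bp upstream to 50 bp downstream of the 5′ end, and no match among the members overlapped another. The C/EBP letters were found in 4 of the 10 members (Alb, Afp, Fga and Fgb) and in 10.3% of all 22367 promoters. The FOXA letters were found in 3 (Alb, Afp and Fga) and 18.8%. Alb, Afp and Fga therefore held both of these strings within the window, and Fgb held the C/EBP letters alone. TATAAA was found in Afp and Afm and in 13.4% of promoters. The HNF4 letters were found in no member and in 0.456% of promoters, which says only that this exact string is not in these windows.

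In Alb the C/EBP letters began 113 bp upstream of the 5′ end and the FOXA letters at 147 bp. In Afp the C/EBP letters began at 89 bp, FOXA at 55 bp and TATAAA at 7 bp. The order of the elements along these neighbouring promoters thus differed, with C/EBP nearer to the start than FOXA in Alb and farther from it in Afp. In Fgb the C/EBP letters began at 140 bp. The Ambp, Fgg, Gc, Ttr and Trf windows held none of the 4 strings. All positions count from the annotated 5′ end, and RefSeq places some starts elsewhere. Its start lies 627 bp downstream for Ambp and 17 bp downstream for Afm, and it lies upstream for Fgg (135 bp), Gc (133 bp), Fgb (60 bp) and Alb (19 bp). Windows set from these RefSeq starts were not searched separately. A match describes the sequence and was not compared with binding of these factors.

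The 10 genes differed widely in the regions found at them. H3K27ac reached the promoters of Alb, Afp, Fgb and Ambp, 4 of 10 members against 20% of all protein-coding genes. H3K4me1 was at the promoter of 1 member, Afm (11.9% of all genes). PolII was at no member promoter in the control (13.1%) and at 1, that of Trf, under Kap1 KD (23.3%). KAP1 was at none (15.7%), H3K9me3 at none (5.24%), and PolIII at none in the control (0.344%) or under Kap1 KD (0.134%). No region of any list was found at the promoters of 4 members, Gc, Fga, Fgg and Ttr, as for 58.5% of all genes. With 10 genes these shares are coarse.

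**Figure D1:**
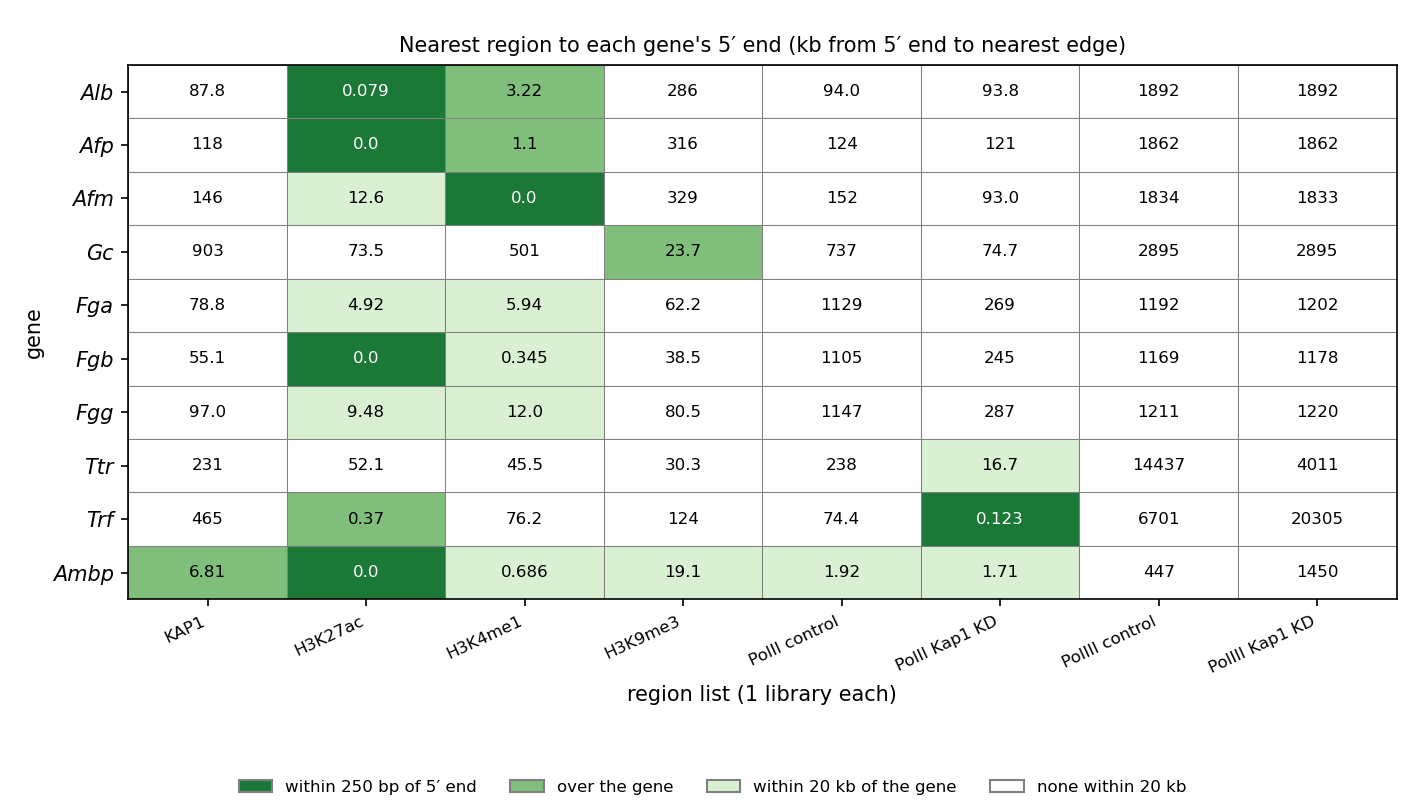
Distance in kb from the annotated 5′ end of each of the 10 plasma protein genes (rows) to the nearest edge of a region in each of the 8 lists (columns, 1 library each), with the shade giving where the closest class of region lies. H3K27ac is the list with most dark cells (promoters of Alb, Afp, Fgb and Ambp), and both PolIII columns hold no region within 20 kb of any member.

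Within 250 bp of the 5′ end, the 4 promoters with H3K27ac carried that mark without any of the other lists. The H3K27ac regions themselves reached farther, and that of Fgb overlapped H3K4me1 and that of Ambp H3K4me1 and PolII of both conditions beyond the window. With windows of 1000 bp, H3K4me1 was at Fgb and Ambp too. KAP1 was at 0 of these 4 (38.6% of the 4464 genes with H3K27ac at the promoter), H3K4me1 at 0 (34.9%), control PolII at 0 (39.6%) and Kap1 KD PolII at 0 (64.1%). All 4 lacked a PolII region of either condition at the promoter, a state found at 34.3% of the genes with H3K27ac there. With windows of 1000 bp Trf also had H3K27ac, and Kap1 KD PolII with it, so it did not share this state. The counts at 250 bp are those of 4 genes, 2 of which are neighbours.

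Over the gene body H3K27ac was found in 5 members, Alb, Afp, Fgb, Trf and Ambp (41.6% of all genes), and H3K4me1 in 3, Alb, Afp and Afm (50.8%). KAP1 was found in 1, Ambp (24.3%), and H3K9me3 in 1, Gc (23.5%). PolII lay over no member in the control (17%) and over Trf under Kap1 KD (30%). PolIII lay over none in the control (3.55%) or under Kap1 KD (0.586%).

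Within 20 kb the active marks were near most members. H3K27ac was found for 8, all but Gc and Ttr (63.9% of all genes), and H3K4me1 for 7, all but Gc, Ttr and Trf (69.9%). H3K9me3 was near 2, Gc and Ambp (47.6%), and KAP1 near Ambp alone (42.5%). PolII was near 1 member in the control, Ambp (27.8%), and near 3 under Kap1 KD, Ttr, Trf and Ambp (45%). PolIII was near none in the control (7.56%) or under Kap1 KD (2.05%). No PolII region of either condition lay within 20 kb of 7 members, Alb, Afp, Afm, Gc, Fga, Fgb and Fgg, as for 54% of all genes. Alb, Afp and Afm share a cluster, as do Fga, Fgb and Fgg. Their 20 kb windows overlap and share regions, so counts of members within 20 kb are not counts of independent places. For H3K27ac the members were most above the share of all genes at the promoter, and over the gene body, as for H3K4me1 within 20 kb, their count was within 1 gene of it. For KAP1 and PolII the share of members was below that of all genes in every window. At the promoter and over the gene body this gap is only a few of 10 genes and is no result about the members. For PolIII and for H3K9me3 at promoters, so few of all genes had a region that 0 of 10 members is no result about them.

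**Figure D2:**
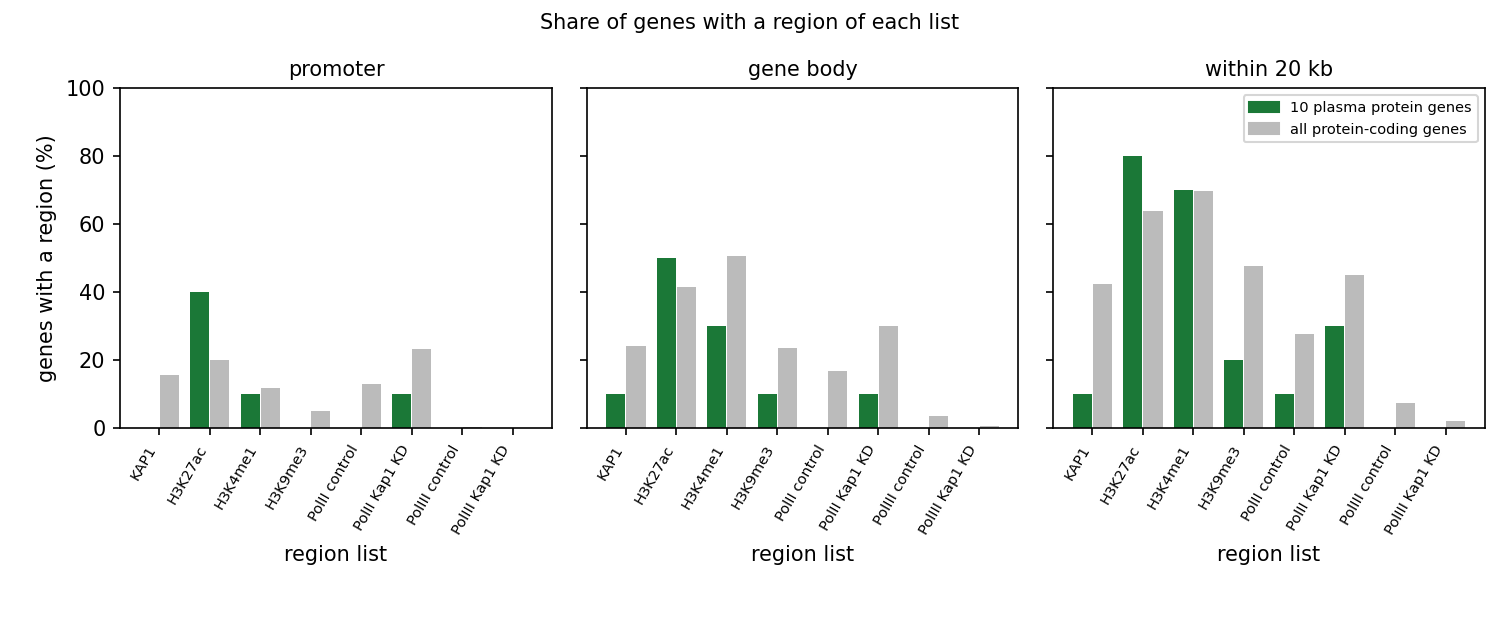
Share of genes in percent (vertical axis) with a region of each list (horizontal axis) at the promoter, over the gene body and within 20 kb, for the 10 plasma protein genes (green) and all 22367 protein-coding genes (grey). The green bar exceeds the grey one for H3K27ac in all 3 windows, and the bars for H3K4me1 within 20 kb are about level.

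Alb, Afp and Afm lie head to tail on the plus strand of chromosome 5, over 92.7 kb from 90889915 to 90982569. Alb spans 15.7 kb, Afp 18.2 kb (from 90919740) and Afm 34.6 kb (from 90947958). Taken as a unit with 20 kb to each side (133 kb), the cluster held 15 H3K27ac regions and 10 H3K4me1 regions and none of the other 6 lists. H3K27ac covered 10.1% of this unit, compared with 1.9% of the genome and 1.55% of chromosome 5. H3K4me1 covered 3.67%, compared with 2.69% and 2.38%. H3K27ac was thus several times denser over the albumin cluster than over its chromosome, and H3K4me1 less so.

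At Alb an H3K27ac region of 1566 bp began 79 bp downstream of the 5′ end and ran to 1.64 kb within the gene (90889994 to 90891559). It took up 172 of the 501 bp of the promoter window and none of the upstream sequence printed for Alb, with its C/EBP and FOXA letters. A second region of 1337 bp lay 5.02 to 6.36 kb into the gene and overlapped H3K4me1, whose widest region over Alb was 1181 bp. Upstream of Alb, the nearest H3K27ac region was a narrow one of 301 bp that began 11.4 kb before the 5′ end (90878508 to 90878808). In all, H3K27ac covered 18.8% of Alb, more than in 94.7% of protein-coding genes, and H3K4me1 covered 13.4%, more than in 83.4%.

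Afp had the highest H3K27ac cover of the 10 genes. The mark covered 26.9% of the gene, more than in 96.6% of protein-coding genes, where the median cover was 0. A region of 287 bp spanned the 5′ end (121 bp upstream to 165 bp downstream) and so held the TATAAA, FOXA and C/EBP letters of the printed Afp promoter. It was followed by a region of 351 bp and by the widest one over the gene, of 2471 bp, which ran from 1.02 to 3.5 kb and ranked 3673 of 57562 H3K27ac regions by width. Regions of 702 and 1207 bp lay near the 3′ end. H3K4me1 covered 7.23% of Afp in 2 regions, both of which overlapped H3K27ac.

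The 14.1 kb between Alb and Afp was the part of the cluster richest in H3K27ac. It was covered to 32.5% by 5 regions, the last of which is the one at the Afp 5′ end. Among 9850 spaces of 5 to 50 kb between neighbouring protein-coding genes, with a median cover of 0, it ranked 182, above 98.2% of them. Relative to the 5′ end of Afp, the regions began 9.23 kb (126 bp wide), 8.23 kb (1492 bp), 6.44 kb (2111 bp) and 3.08 kb (729 bp) upstream. This stretch upstream of Afp is where the enhancers of that gene are known to lie. A single H3K4me1 region of 151 bp lay within the stretch, inside the 2111 bp region.

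Afm, the third gene of the row, had the reverse pattern at its start. Its promoter carried an H3K4me1 region of 788 bp (418 bp upstream to 369 bp downstream of the 5′ end) and no H3K27ac, and no H3K27ac lay over its 34.6 kb. The 10.0 kb between Afp and Afm held no H3K27ac region either. The nearest one was 12.6 kb upstream, within Afp. H3K27ac thus stopped inside the 3′ part of Afp, and the next regions were 49.1 and 49.7 kb downstream of the Afm 5′ end, over 5830473C10Rik.

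**Figure D3:**
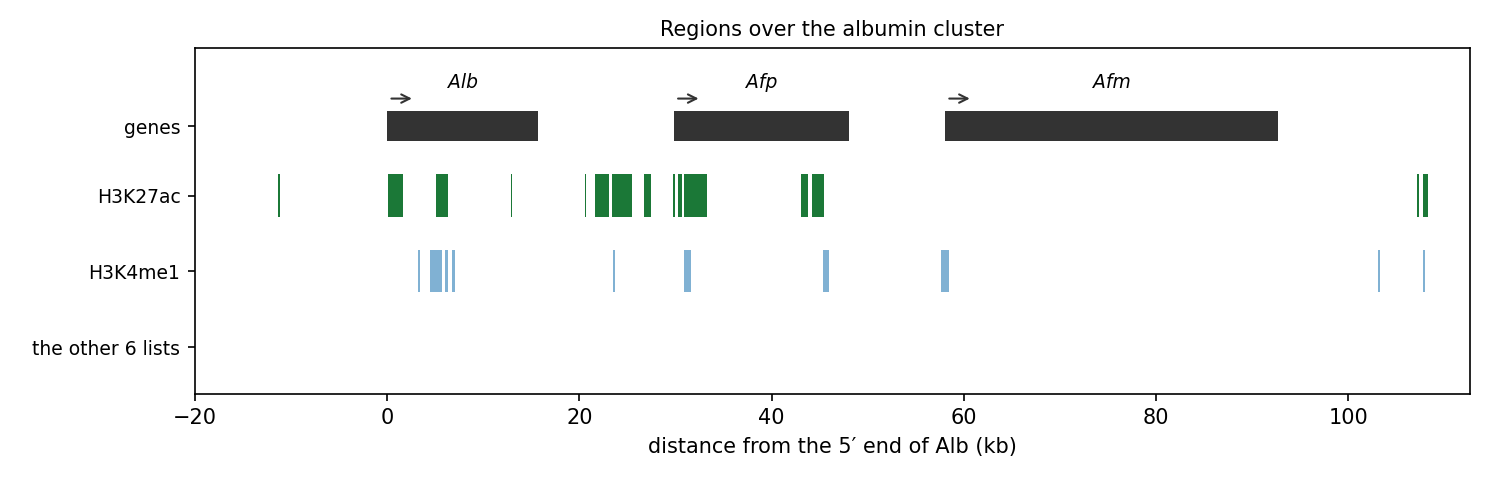
Regions over the albumin cluster with 20 kb to each side, plotted by distance in kb from the 5′ end of Alb, with genes as dark bars, arrows at their 5′ ends and 1 row for H3K27ac, 1 for H3K4me1 and 1 for the other 6 lists together. Of the 15 H3K27ac regions, 12 lie from the start of Alb to the 3′ part of Afp, 1 upstream of Alb and 2 beyond Afm, and Afm carries only H3K4me1 at its start, and the row of the other 6 lists is empty.

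No polymerase or KAP1 region lay within 20 kb of this cluster. The nearest control PolII region lay 94.0 kb from the 5′ end of Alb, 124 kb from that of Afp and 152 kb from that of Afm. The nearest Kap1 KD PolII regions were 93.8, 121 and 93.0 kb away. KAP1 was 87.8 kb from Alb, 118 kb from Afp and 146 kb from Afm, and H3K9me3 286, 316 and 329 kb. Of all genes, 43.0, 48.0 and 51.6% lay nearer to control PolII than Alb, Afp and Afm, so these distances were ordinary. For Kap1 KD PolII the shares were 62.1, 67.0 and 62.0%, for KAP1 62.0, 68.1 and 72.5%, and for H3K9me3 95.9, 96.7 and 96.9%. PolII regions in these lists are numbered in genome order, and 31.3% of the control numbers and 22.6% of the Kap1 KD numbers are missing, and the sources used here do not say why. If a missing number is a call taken out of the list, it would lie between the regions whose numbers it separates. The numbers to each side of Alb, Afp and Afm were consecutive in both lists (1871 and 1872 in the control, 4284 and 4285 under Kap1 KD), so no number is missing there.

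Gc lies on the minus strand of chromosome 5 from 89846549 to 89886790, and 1003 kb with 5 other protein-coding genes separate it from Alb. No active mark was found at Gc or within 20 kb. The nearest H3K27ac region was 73.5 kb from its 5′ end, and the nearest H3K4me1 region 501 kb, a distance larger than that of 98.1% of protein-coding genes. The only region over the 40.2 kb of Gc was an intronic H3K9me3 region of 66 bp, 23.7 kb downstream of the 5′ end, which ranked 63902 of 66242 by width. The nearest KAP1 region was 903 kb away, and the nearest PolII regions 737 kb in the control and 74.7 kb under Kap1 KD. The gene of the albumin family that lies apart from the row thus had neither of the marks found over Alb and Afp.

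Fgg, Fga and Fgb lie on chromosome 3 from 82811781 to 82853725 (41.9 kb). Fgg (7.2 kb) and Fga (7.96 kb), for the gamma and alpha chains, are on the plus strand, and Fgb (7.56 kb), for the beta chain, faces them on the minus strand. With 20 kb to each side the unit measured 81.9 kb and held 5 H3K27ac and 5 H3K4me1 regions and none of the other 6 lists. H3K27ac covered 3.46% of it, against 2.05% of chromosome 3, and H3K4me1 3.81% against 2.33%. Without the flanks H3K27ac covered 3.52% of the fibrinogen cluster and 13.4% of the albumin cluster. H3K4me1 covered 0.944% and 4.71%, so its share over the fibrinogen cluster fell below that of chromosome 3. The fibrinogen cluster thus had the lower H3K27ac cover with and without flanks, while most of its H3K4me1 lay in the flank beyond Fgb. With flanks of 50 kb both marks, at 2.0% and 2.2%, were below their shares of chromosome 3.

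The start of Fgb carried the widest H3K27ac region of this cluster. That region of 1283 bp (82853354 to 82854636) ran from 911 bp upstream to 371 bp downstream of the Fgb 5′ end and so covered all of the printed Fgb promoter. A second of 449 bp followed further upstream. H3K4me1 regions of 407 and 500 bp lay upstream, 345 and 1026 bp from the 5′ end at their nearest, each overlapping one of these. The 5.72 kb between Fgb and its neighbour Plrg1 was covered to 23.8% by H3K27ac (rank 310 of 9850 spaces) and to 29.5% by H3K4me1. That H3K4me1 included a region of 779 bp that lay 4.36 to 5.14 kb upstream of Fgb, on the side of Plrg1. The widest H3K4me1 region of the unit, of 1040 bp, overlapped Plrg1 itself.

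Fga and Fgg had no region of any list over the gene or at the promoter. H3K27ac was found between them, where 3 regions of 421, 416 and 266 bp covered 9.94% of 11.1 kb. These lay 4.92 to 8.81 kb upstream of the Fga 5′ end and 9.48 to 13.4 kb downstream of that of Fgg, and the middle one overlapped an H3K4me1 region of 396 bp. The 8.13 kb between Fga and Fgb held no H3K27ac. The gene for the beta chain therefore carried H3K27ac at its start while those for its partner chains had it only at a distance.

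**Figure D4:**
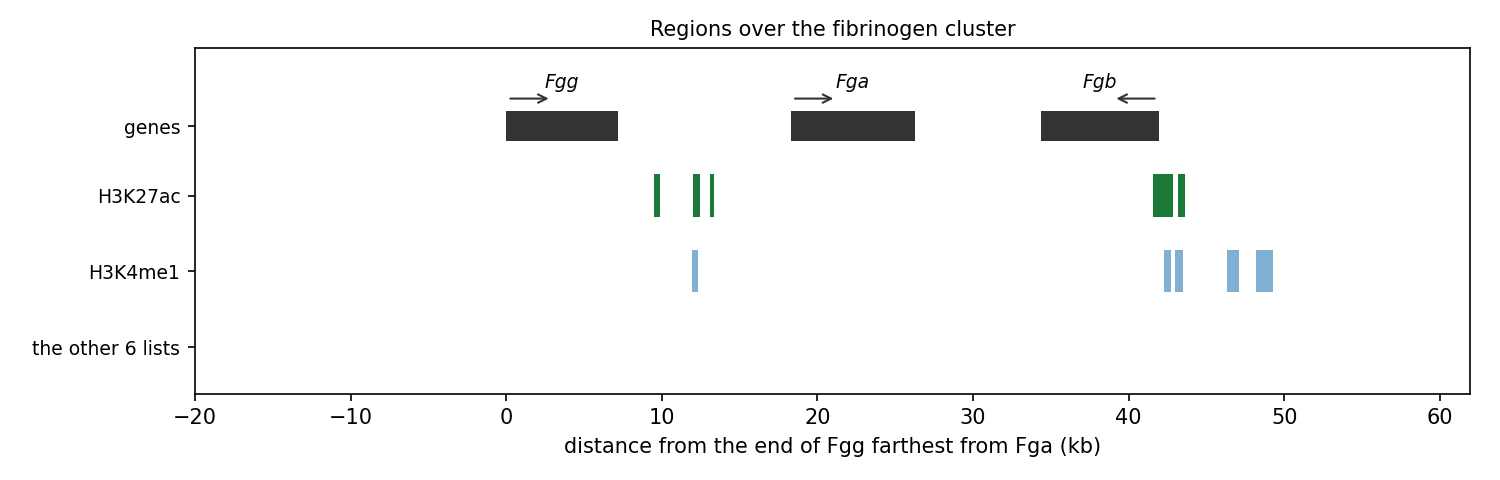
Regions over the fibrinogen cluster with 20 kb to each side, plotted by distance in kb from the 5′ end of Fgg, which is the end farthest from Fga, with genes as dark bars, arrows at their 5′ ends and rows as for the albumin cluster. H3K27ac sits at the start of Fgb with H3K4me1 just upstream, both marks lie between Fgg and Fga, and no region lies over Fga or Fgg.

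The fibrinogen genes were farther from PolII than the albumin genes. The nearest control PolII region lay 1105 kb from the 5′ end of Fgb, 1129 kb from that of Fga and 1147 kb from that of Fgg, and the nearest Kap1 KD region 245, 269 and 287 kb. The numbers to each side were consecutive in both lists. KAP1 was 55.1 kb from Fgb, 78.8 kb from Fga and 97.0 kb from Fgg, and H3K9me3 38.5, 62.2 and 80.5 kb. Of all genes, 87.1, 87.4 and 87.6% lay nearer to control PolII than Fgb, Fga and Fgg, and 79.0, 80.5 and 81.4% nearer to Kap1 KD PolII. For KAP1 the shares were 52.2, 59.6 and 64.0%, and for H3K9me3 51.9, 65.6 and 72.5%.

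Ttr (chromosome 18, 9.07 kb), for transthyretin, had no region at its promoter or over the gene. H3K27ac was 52.1 kb, H3K4me1 45.5 kb, H3K9me3 30.3 kb and KAP1 231 kb from the 5′ end. The only region within 20 kb was a Kap1 KD PolII region of 956 bp, 16.7 kb downstream of the 5′ end, which overlapped the promoter and body of the neighbouring gene model Gm10269. The nearest control PolII region was 238 kb away, and 1 number is missing from the control list in the interval that holds Ttr, so a control call missing from the list there cannot be told apart from none.

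Trf, for transferrin, was the only member with PolII at its promoter, and only in the Kap1 KD list. It lies on the minus strand of chromosome 9 from 103106331 to 103132774 (26.4 kb). The Kap1 KD PolII region was 294 bp wide and lay 123 to 416 bp downstream of the 5′ end (103132358 to 103132651). Its score of 22 ranked 11308 of 12862, among the lowest in the list, where the meaning of the score is not stated. It overlapped the H3K27ac region within Trf, of 345 bp at 370 to 714 bp, one of the narrower ones (rank 38722 of 57562). KAP1 was 465 kb, H3K9me3 124 kb and H3K4me1 76.2 kb from the Trf 5′ end. A second gene record of the same symbol starts within the PolII region.

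In the control list the nearest PolII region was 74.4 kb from the Trf 5′ end, and the numbers to each side of the gene were consecutive. The Kap1 KD list holds 12862 regions and the control list 5015, so a region of this rank called in the longer list only is a difference between the lists and was not tested as a change. A cut to the 5015 highest-scoring Kap1 KD regions left none over the 10 genes. This follows from the rank of the Trf region, 11308, and so says nothing further about the 2 lists. Chromosome 9 was sparse in all lists, with 14.6 H3K27ac regions per Mb against 21.7 for all chromosomes and 0.709 control PolII regions per Mb against 1.89. On that chromosome 10.4% of genes had Kap1 KD PolII at the promoter and 4.27% control PolII.

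Ambp, on the minus strand of chromosome 4 from 62804309 to 62815833 (11.5 kb), was the only member near regions of 6 lists. An H3K27ac region of 2609 bp (62815391 to 62817999), rank 3272 by width, ran from 2.17 kb upstream to 442 bp downstream of the annotated 5′ end. A further annotated transcript of Ambp starts 626 bp downstream, 184 bp beyond the end of that region. H3K27ac regions of 1796 and 485 bp followed upstream, and 7 H3K4me1 regions lay between 8.46 and 0.686 kb upstream. Within 20 kb of Ambp, H3K27ac covered 5656 bp, a share of the sequence larger than for 92.1% of genes and between those of Afp (16.4%) and Fga (5.91%).

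PolII lay upstream of Ambp in both conditions and not at the promoter. The control region (62817748 to 62818631, 884 bp) lay 1.92 to 2.8 kb upstream of the 5′ end, and the Kap1 KD region (62817545 to 62818584, 1040 bp) 1.71 to 2.75 kb upstream. They overlapped each other, H3K27ac and H3K4me1. The control region ranked 3128 of 5015 by score and the Kap1 KD region 4130 of 12862. The control list lacks 1 number between this region and the next one on the other side of Ambp, 734 kb beyond its 3′ end, so a control call missing from the list at the gene cannot be told apart from none. Neither PolII region overlapped an annotated gene, and this was the one place within 20 kb of a member where both lists had PolII.

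KAP1 was found at Ambp alone. A KAP1 region of 1738 bp lay in an intron 6.81 to 8.55 kb downstream of the 5′ end (62807286 to 62809023), with a score of 104.23 and rank 6064 of 12470, and overlapped no other list. Another of 1314 bp (62834907 to 62836220, rank 4368) lay 19.1 to 20.4 kb upstream and overlapped an H3K9me3 region of 357 bp. The KAP1 regions near Ambp were thus one without H3K9me3 and one with it, and neither touched the H3K27ac or PolII regions of the gene. The sequence at the centre of the intronic region is shown because it is the only KAP1 region over any of the 10 genes. Capitals mark the letters GGGAGGCAG on the opposite strand, a string common in the B1 class of short interspersed repeats that was chosen after the sequence had been read.
KAP1 centre in Ambp (chr4:62808055-62808254, NCBIM37, minus strand): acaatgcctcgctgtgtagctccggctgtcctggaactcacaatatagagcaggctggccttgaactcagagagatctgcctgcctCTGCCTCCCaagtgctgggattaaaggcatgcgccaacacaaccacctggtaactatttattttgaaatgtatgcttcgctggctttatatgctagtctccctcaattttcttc
The same letters were found in the central 200 bases of 1.39% of the 12470 KAP1 regions.

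**Figure D5:**
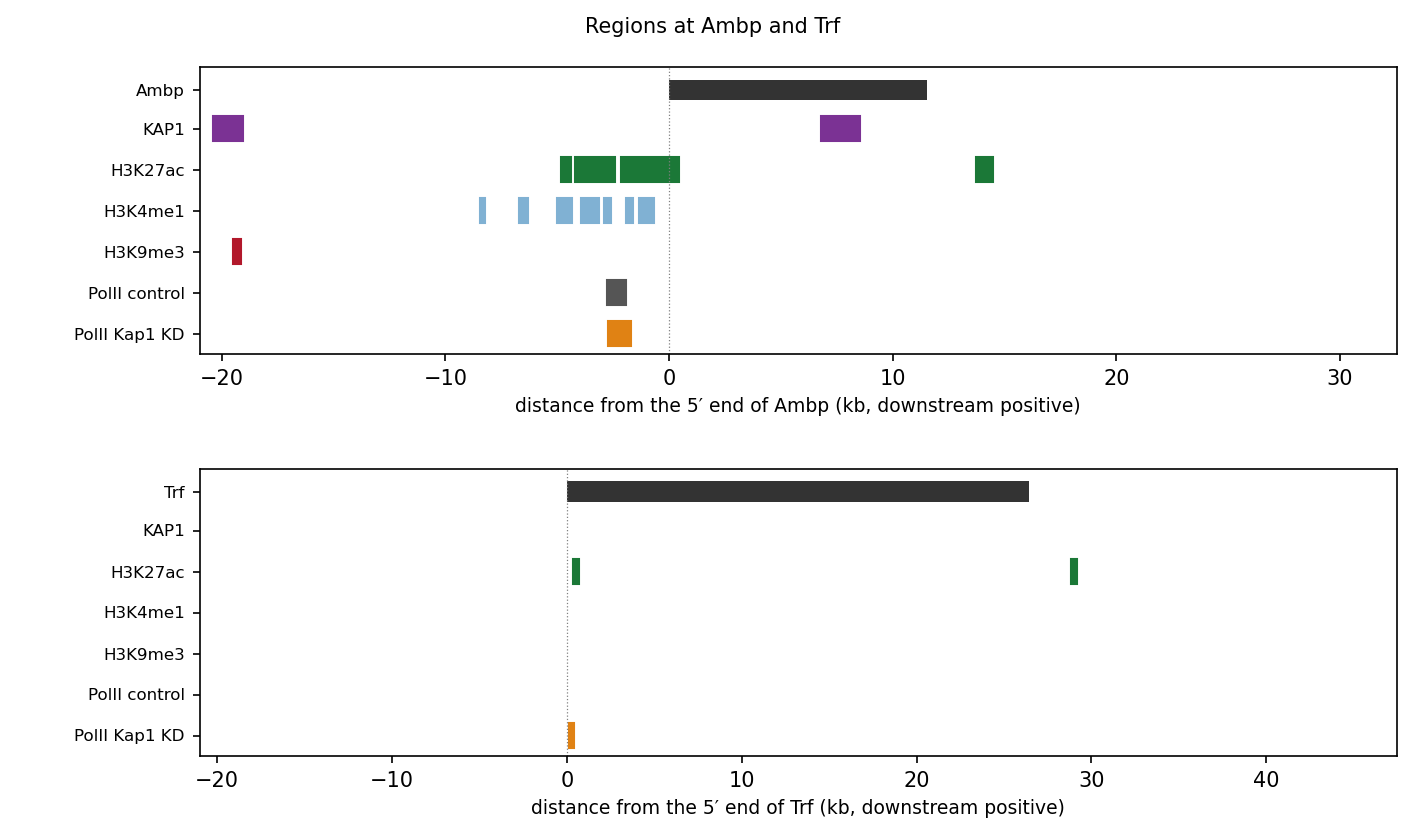
Regions within 20 kb of Ambp (top) and Trf (bottom), plotted by distance in kb from the annotated 5′ end in the direction of the gene, with the gene as a dark bar and 1 row for each list (the PolIII lists, with no region here, are left out). At Ambp the PolII regions of both conditions overlap H3K27ac and H3K4me1 upstream of the gene and KAP1 sits apart from them, and at Trf a single Kap1 KD PolII region sits 123 to 416 bp downstream of the 5′ end.

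PolIII, which transcribes short RNAs such as tRNAs, had no region within 20 kb of the 10 genes. Its nearest region in either list was 447 kb from a member 5′ end, for Ambp in the control. The share of all genes nearer to control PolIII ran from 28.2% for Ambp to 91.6% for Ttr. Of the PolIII numbers, 30.4% in the control and 55.0% under Kap1 KD are missing. The interval of Ambp lacks 14 control and 5 Kap1 KD numbers, and that of Alb, Afp and Afm 6 control numbers. A call missing from the lists there cannot be told apart from none.

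The genes most like Alb and Fgb were found from the share of each gene covered by each of the 8 lists, by Euclidean distance over all other protein-coding genes. Nearest to Alb were Slco1a4, an organic anion transporter, Trim69, Vip, F11, which encodes coagulation factor XI, and Hbxip. In these 5, H3K27ac covered 17.2 to 19.9% and H3K4me1 12.8 to 14.7% of the gene, with none of the other lists, compared with 18.8% and 13.4% in Alb. Nearest to Fgb were Syngr3, Cnih, Keap1, Aifm1 and Fam3b, with 4.85 to 4.96% H3K27ac and no other list, compared with 4.92% in Fgb. The measure uses 8 libraries and takes no account of where in the gene a region lies.

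A list of 52 other plasma protein genes, among them coagulation, complement and protease inhibitor genes, was all found in the annotation. No region of any list was at the promoter of 42 of the 52 (80.8%), compared with 4 of the 10 members and 58.5% of all genes. H3K27ac was at the promoters of 6 (11.5%, against 20% of all genes), Cp (ceruloplasmin), Itih2, F11, Proc (protein C), Cfb (complement factor B) and Rbp4 (retinol binding protein). PolII was at the promoter of 1 in the control, Rbp4 (1.92%, against 13.1%), and of 2 under Kap1 KD, Rbp4 and Apoh (3.85%, against 23.3%). KAP1 was at 1 promoter, that of Azgp1 (1.92%, against 15.7%). Rbp4 was the 1 gene of the 52 with PolII over the gene in both lists. The other 5 with H3K27ac at the promoter had no PolII there in either list, as was the case for Alb, Afp, Fgb and Ambp.

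The label of the line was checked against a list of hepatocyte markers. H3K27ac was at the promoters of 4 of 8 (Hnf4a, Foxa2, Krt8 and Krt18; 20% of all genes) and PolII at 4 (Foxa2, Cebpa, Krt8 and Krt18), the same 4 in the control (13.1%) and under Kap1 KD (23.3%). Apoa1, Apob and Foxa1 had no region of any list there (3 of 8, against 58.5% of all genes). Of 10 markers of other liver cell types, H3K27ac was at 2 (Krt19 and Col1a1) and PolII of both conditions at 1 (Cd68). H3K4me1 was at the promoters of 2 of the 8 hepatocyte markers and 4 of the 10 others (11.9% of all genes). Within 20 kb, H3K27ac was near 6 and 7 (63.9%) and H3K4me1 near 6 and 10 (69.9%), and no difference between the marker lists was tested.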

How the data were processed

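ChIP-seq was performed on Hepa 1-6 cells with 1 library per antibody and condition. Per the methods of the study, the authors mapped reads to mm9 with Bowtie. They used MACS with total input as the control for KAP1 and PolII, and ChIP-Part for the histone marks. The caller for PolIII and all options are not given in the sources used here. The authors deposited positions and, for KAP1, PolII and PolIII, a score per peak that was used only for ranks within a list; histone mark regions were ranked by width.

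The positions were overlapped (at least 1 bp) with GENCODE M1 genes on NCBIM37, using Python 3.11.15 and numpy 2.4.6, and the overlap code was tested on simulated data. Starts and ends are counted from 1. For Trf, the gene record of known status was used. Shares over all protein-coding genes stand beside the main counts of members at the promoter, over the gene body and within 20 kb. They are not given for counts under alternative settings. No test was run because each group holds 1 library. Depth is unknown, so no interval is given. All 10 genes were named, with each KAP1, PolII and H3K9me3 region over a gene or the distance of the nearest; for PolIII the shortest distance is given. For H3K27ac and H3K4me1, regions at promoters, the widest over a gene and those between cluster genes were named, with a few others nearby. The members and lists were chosen with earlier results of these data known. From the marker and motif lists, 1 gene and 1 motif are left out. Alternatives were other windows, a larger overlap, the upper part of each list and other cluster flanks.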

Additional observations from a re-analysis of the deposited data

How the results depend on the processing

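Of 88 alternative counts of members with a region, 76 were within 1.5 times the reported count, of which 39 were counts of 0 that stayed at 0. At the promoter, windows of 1000 bp raised H3K4me1 from 1 to 3 members (Afm, Fgb and Ambp). The 4 promoters with H3K27ac became 3 in the upper part of the list by width, where Afp was lost. They became 5 with windows of 1000 bp or any transcript start, where Trf was added. The single Kap1 KD PolII promoter, that of Trf, was lost with windows of 100 bp (0) and in the upper part of the list by score (0), which also left 0 over the gene body and 1 within 20 kb. Control PolII within 20 kb fell from 1 to 0 in the upper part of its list. H3K9me3 over the gene body went from 1 to 0 with an overlap of at least 100 bp and in the upper part by width, since the Gc region is narrow. Within 20 kb it went from 2 to 1 under both, to 1 with 10 kb and to 4 with 50 kb. H3K27ac covered 13.4% of the albumin cluster without flanks and 8.19% with 50 kb, and H3K4me1 4.71% and 3.45%. For the fibrinogen cluster the shares were 3.52% and 2.0% for H3K27ac and 0.944% and 2.2% for H3K4me1, and H3K9me3 rose from 0 to 0.221% with 50 kb. The length of PolII over the 10 genes was 0 bp in the control and 294 bp under Kap1 KD, so their ratio has no value. With 5 kb to each side the lengths were 884 and 1334 bp. The background of chromosome 9 for Trf was chosen after seeing the data. There 29.5% of genes had H3K27ac over the gene body, against 41.6% of all genes, and 10.4% had Kap1 KD PolII at the promoter, against 23.3%. No paired analysis was possible because each group holds 1 library.

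The lists hold no read counts, so a region absent at a gene was not compared with the depth of its library, and each list rests on 1 library.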
